A study of Homo sapiens with 24 samples.

Results

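The genes described here are 9 genes of iron storage, heme breakdown, iron transport and iron sensing: FTH1, FTL, HMOX1, TFRC, SLC11A2, SLC40A1, NCOA4, ACO1 and IREB2. They were taken by symbol from the gene count tables of BXPC3 and PANC1, where they are 9 of 25168 genes, and each was found once in each table. BXPC3 and PANC1 are established human pancreatic ductal adenocarcinoma cell lines. Each line was grown in low-glucose DMEM with serum and kept for 24 h with vehicle, with SR4 at 5 uM, with lonidamine at 300 uM or with both compounds, and RNA was sequenced from 3 libraries per group, 24 libraries in 8 groups. SR4, known by this code name, is described as an uncoupler of mitochondria, and lonidamine is known to block mitochondrial pyruvate import, lactate export and a complex of the respiratory chain. The doses within the combination are not stated separately, so comparisons of it with either compound alone assume equal doses. Nothing states whether libraries of a group came from separate cultures, so p-values measure the spread between these libraries, which may be technical.

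Cells take up iron through the transferrin receptor and the transporter encoded by SLC11A2, store it in shells of ferritin heavy and light chains, and release it through ferroportin, the product of SLC40A1. Stored iron is freed when NCOA4 carries ferritin to the lysosome, and iron bound in heme is freed by heme oxygenase. When iron is low, the iron regulatory proteins encoded by ACO1 and IREB2 bind hairpins in messenger RNAs, the iron-responsive elements, which blocks translation of ferritin and ferroportin and protects the TFRC transcript from decay. Transcription of FTH1, FTL and HMOX1 is known to be driven by NRF2 with small MAF partners and held back by BACH1, a repressor that heme inactivates.

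The elements separate the members by where they lie, and they are shown because a change in RNA level and a change in translation through an element are different things, of which these libraries measure the first. A pattern was searched in the longest protein-coding transcript of each gene in GENCODE release 29 on GRCh38: a bulged C, 5 paired bases with G-U pairs allowed, the loop CAGTGN, the 5 partner bases and at least 3 of 4 pairs below the bulge. It was found in 44 of 19669 genes, or 0.224%. Matches are given for 7 members (FTL, TFRC, SLC40A1, SLC11A2, NCOA4, IREB2 and ACO1), of which 3 held it. Those of FTH1 and HMOX1 are not reported here, so nothing follows on whether these 2 hold the pattern. The sites are printed 5′ to 3′ with T for U, and capitals mark the loop of 6 bases.
FTL 1: cttgcttcaaCAGTGTttggacgga
SLC40A1 1: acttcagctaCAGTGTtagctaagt
TFRC 1: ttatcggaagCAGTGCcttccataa
TFRC 2: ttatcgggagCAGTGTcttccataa
TFRC 3: gtatcggagaCAGTGAtctccatat
TFRC 4: ttatcgggaaCAGTGTttcccataa
The FTL site is in the 5′ UTR, at chr19:48965337-48965361 on the plus strand. That of SLC40A1 is also in the 5′ UTR, at chr2:189580663-189580687 on the minus strand. All 4 TFRC sites are in the 3′ UTR on the minus strand, the first at chr3:196050981-196051005 and the last at chr3:196050465-196050489. TFRC 2 and TFRC 4 have the same loop as FTL and SLC40A1, and TFRC 1 and TFRC 3 differ from it in the last base of the loop. No match in the other 4 members says only that these letters are not in the transcripts searched.

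Total gene counts ran from 8873041 to 11822495 per library. Levels below are CPM, a gene's counts relative to the counts of its library, scaled by TMM over 24 libraries. CPM divided by the gene length in kilobases listed in the tables serves to compare genes with each other. All 7 epithelial markers were above 0 in every group, as were the 4 mesenchymal ones, so this does not tell identity. Above 0 means any count: in PANC1 the mesenchymal FN1 averaged at most 0.613 CPM and the epithelial KRT7 at most 7.32 CPM in any group. The epithelial markers summed to 6038 CPM in BXPC3 and 3759 CPM in PANC1 under vehicle, and to 3285 and 839 CPM under both compounds. Markers of other cells with high iron turnover were near 0: 5 erythroid markers summed to at most 0.212 CPM and 4 hepatocyte markers to at most 0.207 CPM in any library. The 4 mesenchymal markers summed to 367 CPM under vehicle and 426 CPM under both compounds in BXPC3. In PANC1 they summed to 4274 and 2830 CPM, above its epithelial sums. There VIM alone stood at 4064 and 2613 CPM. CDH2 fell there from 150 to 94.1 CPM and ZEB1 rose from 59.5 to 123 CPM. FN1 went the other way between lines, at 0.420 and 0.521 CPM in PANC1 against 284 and 283 CPM in BXPC3. The 6 macrophage and immune markers summed to 29.8 and 41.2 CPM in BXPC3 and to 119 and 198 CPM in PANC1. Among them PTPRC, the leukocyte phosphatase, averaged at most 0.0386 CPM in any group, while CD68, a lysosomal protein gene, averaged 18.9 CPM in BXPC3 and 119 CPM in PANC1 under vehicle, against 39.4 and 198 CPM under both compounds. Others of that list fell in BXPC3 under both compounds, SPP1 from 6.98 to 0.613 CPM and CD14 from 3.64 to 0.996 CPM. Sums also hide single markers: in BXPC3 the epithelial EPCAM and SOX9 rose, from 222 to 301 and from 52.9 to 70.0 CPM. The mesenchymal CDH2 fell there from 14.3 to 2.57 CPM, while VIM rose from 67.3 to 138 CPM. The part of these marker changes in the results was not tested. In RNA from whole cultures, fewer cells of a kind and less RNA per cell cannot be told apart.

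**Figure D1:**
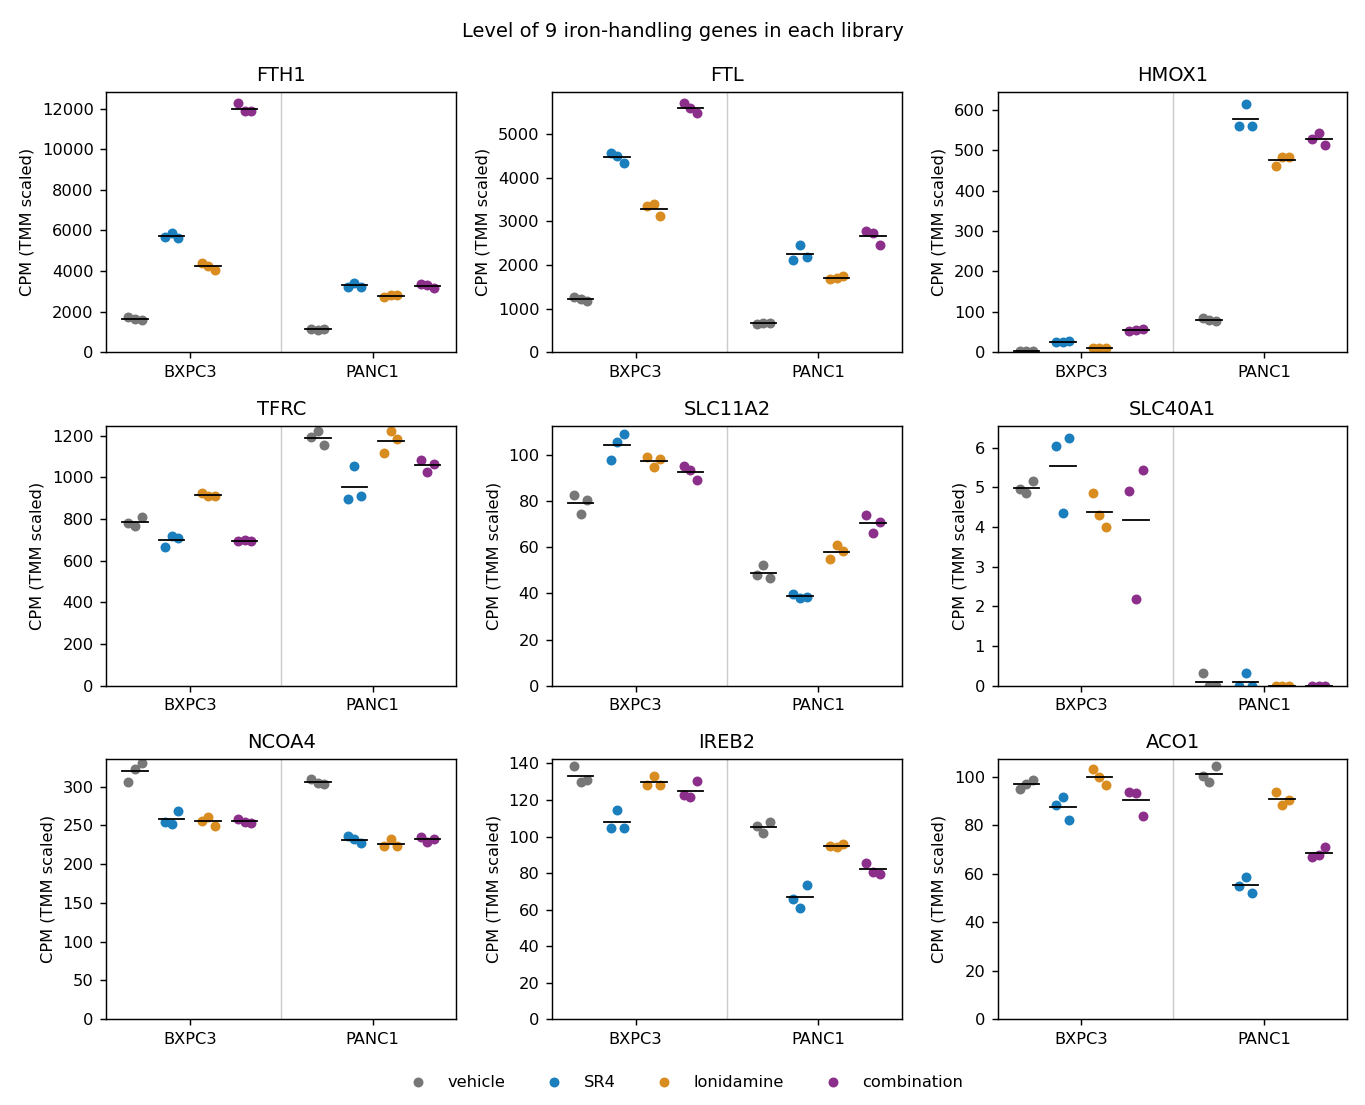
Level of each of the 9 genes in every library, in CPM scaled by TMM, each panel on its own axis from 0. Points are libraries (3 per group), coloured by treatment, and the line is the group mean. The combination libraries of BXPC3 stand at 11878 to 12264 CPM for FTH1, above every other library, and HMOX1 is higher in every PANC1 library than in any BXPC3 library.

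Both ferritin chains rose with every treatment in both lines. FTH1, the heavy chain that carries the iron-oxidising centre, lies on chromosome 11 from 61959718 to 61967660. In BXPC3 it stood at 1717, 1652 and 1568 CPM with vehicle, at 5681, 5873 and 5645 CPM with SR4, at 4415, 4234 and 4052 CPM with lonidamine and at 12264, 11878 and 11881 CPM with the combination. No 2 of these groups overlap, and the order is vehicle, lonidamine, SR4, combination. The rise against vehicle was 3.47-fold with SR4 (1.80 ± 0.030 log2, SE, n = 3 per group), 2.60-fold with lonidamine (1.38 ± 0.030) and 7.33-fold with the combination (2.87 ± 0.031). The edgeR quasi-likelihood test, with p adjusted by Benjamini and Hochberg over all genes tested, gave adjusted p = 1.04e-25, 9.06e-24 and 2.51e-30. The combination was also above SR4 alone by 1.08 ± 0.029 log2 (adjusted p = 3.88e-21).

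In PANC1 FTH1 rose with each treatment, and the combination did not differ from SR4 by the test. It stood at 1143, 1109 and 1126 CPM with vehicle, at 3224, 3430 and 3219 CPM with SR4, at 2733, 2802 and 2834 CPM with lonidamine and at 3374, 3288 and 3140 CPM with the combination. SR4 and combination libraries overlap, and every treated library is above every vehicle library. Against vehicle the rises were 1.55 ± 0.031, 1.29 ± 0.031 and 1.58 ± 0.032 log2. The combination differed from SR4 by 0.04 ± 0.031 log2, with a 95% interval of -0.03 to 0.11 (adjusted p = 0.27). Without the second SR4 library, the highest of its group, that difference was 0.07 log2 and passed (adjusted p = 0.0303).

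FTL, the light chain that helps to lay down the iron core, lies on chromosome 19 from 48965301 to 48966878. BXPC3 libraries had 1276, 1209 and 1183 CPM with vehicle, 4574, 4511 and 4335 CPM with SR4, 3356, 3403 and 3129 CPM with lonidamine and 5718, 5611 and 5491 CPM with the combination. Those of PANC1 had 656, 661 and 669 CPM with vehicle, 2122, 2458 and 2191 CPM with SR4, 1669, 1705 and 1758 CPM with lonidamine and 2790, 2725 and 2457 CPM with the combination. The order was the same in both lines, and no groups overlapped except in PANC1, where the second SR4 library matched the lowest combination library. Rises in BXPC3 were 1.87 ± 0.031, 1.44 ± 0.031 and 2.20 ± 0.032 log2 with SR4, lonidamine and the combination (adjusted p = 1.30e-25, 9.52e-24 and 9.61e-28). In PANC1 they were 1.77 ± 0.044, 1.35 ± 0.044 and 2.05 ± 0.044 log2 (adjusted p = 3.60e-23, 1.17e-20 and 5.16e-25). Unlike FTH1, FTL was higher with the combination than with SR4 in both lines, by 0.34 ± 0.030 log2 in BXPC3 and 0.28 ± 0.042 log2 in PANC1 (adjusted p = 3.04e-10 and 1.11e-06).

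The ferritin transcripts became a large share of all gene counts. FTH1 and FTL together took 0.279% ± 0.011 of counts with vehicle in BXPC3 and 1.01% ± 0.021 with SR4, 0.720% ± 0.018 with lonidamine and 1.66% ± 0.024 with the combination (SD, n = 3 each). In PANC1 the shares were 0.185% ± 0.0017, 0.558% ± 0.022, 0.475% ± 0.0044 and 0.626% ± 0.028. Per kilobase, FTL ranked 2 of 25168 genes in BXPC3 with vehicle and 1 with each treatment, and in PANC1 it went from rank 12 to ranks 2, 2 and 1 with SR4, lonidamine and the combination. FTH1 went from rank 10 to ranks 2, 3 and 2 in BXPC3 and from rank 20 to ranks 7, 5 and 6 in PANC1. On that scale FTL was above FTH1 in every group, at 1399 against 812 CPM per kilobase with vehicle in BXPC3, though the listed lengths of 0.874 and 2.026 kb set that order. Reads from the many processed copies of both ferritin genes may be part of these levels, which was not tested: the tables hold 0 rows named as such copies, and the sources used here do not state how reads that fit several places were counted.

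The balance of the 2 chains moved in opposite directions with the combination. Within a library, FTL counts over FTH1 counts were 0.743 ± 0.011 with vehicle in BXPC3, 0.780 ± 0.021 with SR4, 0.779 ± 0.022 with lonidamine and 0.467 ± 0.0052 with the combination (SD, n = 3 each). PANC1 libraries had 0.588 ± 0.012, 0.685 ± 0.029, 0.613 ± 0.0062 and 0.813 ± 0.026. All 3 combination libraries of BXPC3 were below all of its vehicle libraries, and all 3 of PANC1 were above theirs. An exact two-sided permutation test gave p = 0.1 in all 6 comparisons with vehicle, the smallest p that 3 against 3 libraries allow, and 0.129 after adjustment over 18 ratio tests. This ratio does not depend on the scaling between libraries.

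**Figure D2:**
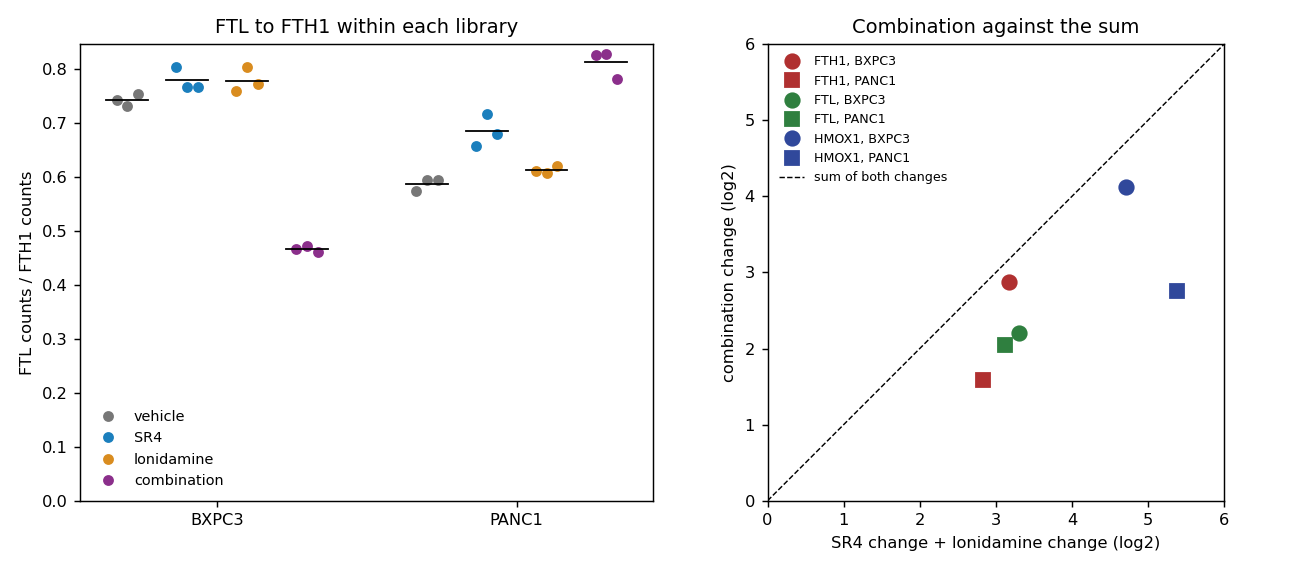
Left, FTL counts over FTH1 counts in each library, with points for libraries and lines for group means (3 per group). Right, the log2 change with the combination against the sum of the log2 changes with SR4 and with lonidamine, for FTH1, FTL and HMOX1 in BXPC3 (circles) and PANC1 (squares). All 6 points lie below the dashed line of equality, and HMOX1 in PANC1 lies farthest from it, at 2.76 against 5.39.

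HMOX1, the inducible enzyme that splits heme into iron, biliverdin and carbon monoxide, was higher in PANC1 than in BXPC3 before treatment. It lies on chromosome 22 from 35380361 to 35394214. With vehicle it stood at 3.24, 2.82 and 3.41 CPM in BXPC3 and at 83.4, 80.6 and 77.5 CPM in PANC1, 25.3-fold higher in PANC1 (4.66 ± 0.089 log2, adjusted p = 1.50e-34). BXPC3 rose to 25.2, 24.6 and 28.6 CPM with SR4, to 10.2, 9.62 and 10.1 CPM with lonidamine and to 52.9, 55.4 and 56.6 CPM with the combination. Those are changes of 3.04 ± 0.12, 1.67 ± 0.14 and 4.12 ± 0.11 log2, the last 17.4-fold, from 102 counts over the 3 vehicle libraries. Its 4 groups do not overlap, and even the combination libraries of BXPC3 were below every vehicle library of PANC1.

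PANC1 HMOX1 stood at 560, 613 and 559 CPM with SR4, at 460, 484 and 483 CPM with lonidamine and at 528, 542 and 513 CPM with the combination. Against vehicle the changes were 2.84 ± 0.044, 2.54 ± 0.044 and 2.76 ± 0.044 log2 (adjusted p = 8.73e-28, 1.89e-26 and 1.18e-27). The combination libraries lay between those of both single compounds. Against SR4 alone the combination differed by -0.08 ± 0.037 log2, with a 95% interval of -0.17 to 0.01 (adjusted p = 0.0585). That p fell to 0.04 without the first SR4 library and to 0.0337 without the third.

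The combination was compared with the sum of both single changes on the log2 scale. The departure was negative for FTH1, FTL and HMOX1 in both lines, so each rose less than the sum on this scale, where adding changes multiplies folds. By mean CPM, without a test, FTH1 and HMOX1 in BXPC3 rose by more than the sum of the single rises. FTL in BXPC3, and each of these genes in PANC1, rose by less on that scale too. For FTH1 it was -0.30 ± 0.041 log2 in BXPC3, where 2.87 stood against a sum of 3.17, and -1.25 ± 0.044 in PANC1, where 1.58 stood against 2.84 (adjusted p = 1.04e-06 and 2.83e-19). For FTL the departures were -1.11 ± 0.043 and -1.07 ± 0.060 log2 (adjusted p = 2.21e-17 and 1.06e-14). For HMOX1 they were -0.59 ± 0.17 in BXPC3 and -2.63 ± 0.058 in PANC1 (adjusted p = 0.00489 and 1.27e-23). Over all members, 7 of 9 departed from the sum in BXPC3 (2 positive, 5 negative), where 49.2% of all genes tested did (23.7% and 25.5%), and 8 of 8 tested in PANC1 (5 positive, 3 negative), where 60.9% did (30.8% and 30%). The positive departures were in NCOA4 and IREB2 in both lines and also in TFRC, SLC11A2 and ACO1 in PANC1.

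**Figure D3:**
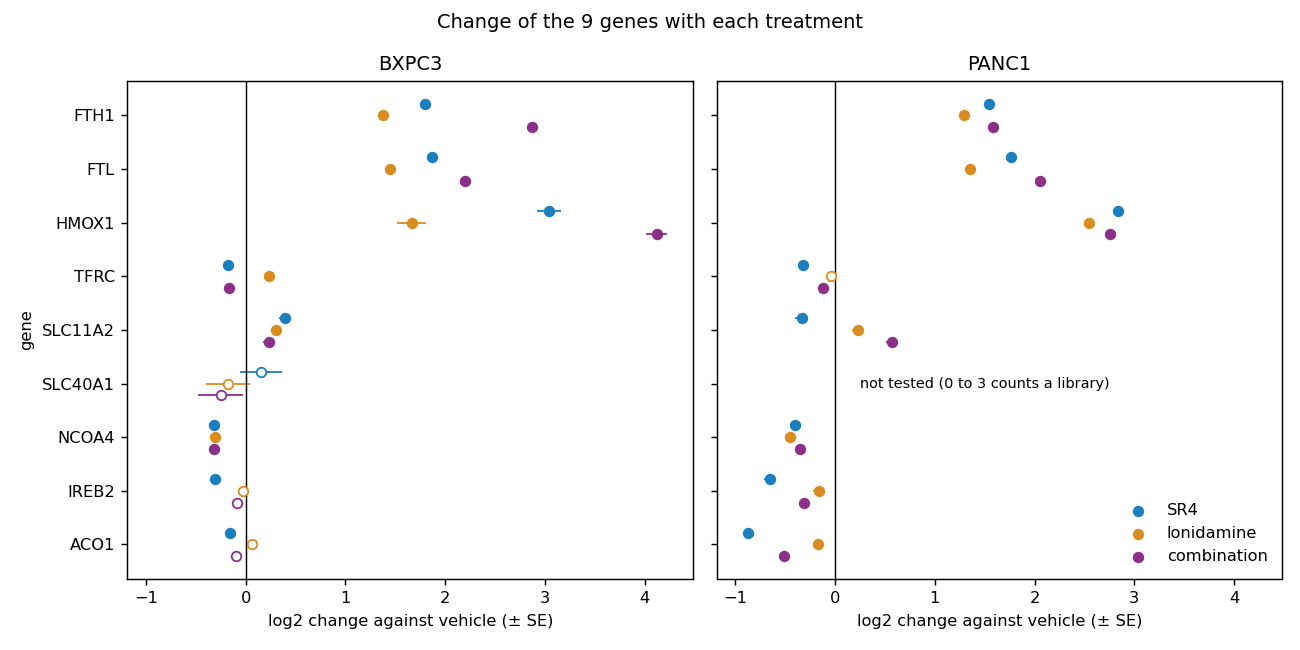
Log2 change against vehicle for the 9 genes with SR4, lonidamine and the combination in each line, with bars for the SE (3 libraries per group). Filled points passed an adjusted p of 0.05 and open points did not. FTH1, FTL and HMOX1 lie far to the right in both lines, NCOA4 lies left of 0 in all 6 comparisons, and SLC11A2 lies on opposite sides with SR4.

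The uptake genes TFRC and SLC11A2 changed by at most 0.57 log2 against vehicle. TFRC, the receptor for iron-loaded transferrin, lies on chromosome 3 from 196027183 to 196082189. In BXPC3 it stood at 780, 768 and 808 CPM with vehicle, at 663, 717 and 709 CPM with SR4, at 927, 908 and 911 CPM with lonidamine and at 692, 701 and 692 CPM with the combination. It fell with SR4 and with the combination, at -0.18 ± 0.032 and -0.17 ± 0.032 log2, and rose with lonidamine by 0.23 ± 0.032 log2 (adjusted p = 2.66e-05, 3.80e-05 and 4.20e-07). Every lonidamine library was above, and every SR4 and combination library below, every vehicle library.

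PANC1 TFRC stood at 1193, 1219 and 1155 CPM with vehicle, at 894, 1056 and 912 CPM with SR4, at 1118, 1220 and 1184 CPM with lonidamine and at 1082, 1027 and 1064 CPM with the combination. It fell with SR4, at -0.32 ± 0.043 log2, and with the combination, at -0.12 ± 0.043 log2 (adjusted p = 2.20e-07 and 0.0118), while lonidamine gave -0.04 ± 0.043 (adjusted p = 0.451). The fall with the combination missed the threshold without the second vehicle library (adjusted p = 0.0582) and without the second combination library (adjusted p = 0.0801). TFRC counts over FTH1 counts fell from 0.478 ± 0.032 with vehicle to 0.0579 ± 0.0013 with the combination in BXPC3 and from 1.06 ± 0.038 to 0.324 ± 0.013 in PANC1 (SD, n = 3 each), with no overlap, at an exact permutation p of 0.1 in each line.

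SLC11A2, the gene of the divalent metal transporter DMT1, lies on chromosome 12 from 50979401 to 51028566 and responded to SR4 in opposite directions. In BXPC3 it stood at 82.7, 74.5 and 80.4 CPM with vehicle and at 97.9, 106 and 109 CPM with SR4. In PANC1 it stood at 48.0, 52.2 and 46.9 CPM with vehicle and at 39.9, 38.2 and 38.6 CPM with SR4. The change was 0.39 ± 0.052 log2 in BXPC3 and -0.33 ± 0.065 in PANC1 (adjusted p = 2.30e-07 and 4.77e-05), and the difference between lines was -0.73 ± 0.084 log2 (adjusted p = 1.89e-09). With the combination it rose in both, by 0.23 ± 0.053 log2 in BXPC3 and by 0.57 ± 0.058 log2 in PANC1, and with lonidamine by 0.31 ± 0.052 and 0.23 ± 0.060 log2. In PANC1 the combination libraries, at 74.0, 66.2 and 71.2 CPM, were above every library of the other 3 groups. In BXPC3 the combination differed from SR4 by -0.16 log2 (adjusted p = 0.0108), a difference that missed the threshold without the SR4 library that carries no matching number (adjusted p = 0.0753) or without the third combination library (adjusted p = 0.0564). Forms of SLC11A2 with and without an iron-responsive element are known, and gene counts do not tell them apart.

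SLC40A1, the only known iron exporter of mammalian cells, lies on chromosome 2 from 189560579 to 189583758 and was almost without counts in PANC1. BXPC3 libraries had 55, 50 and 56 counts with vehicle, 63, 41 and 66 with SR4, 47, 43 and 38 with lonidamine and 43, 19 and 47 with the combination. PANC1 libraries had 3, 0 and 0 counts with vehicle, 0, 3 and 0 with SR4, and 0 in all 6 libraries with lonidamine or the combination. The level in PANC1 with vehicle was 0.0212 times that in BXPC3 (95% exact interval 0.00434 to 0.0632, counting error only). With lonidamine and with the combination, a limit of 3 counts over the 3 PANC1 libraries lies 51.4-fold and 48.1-fold below BXPC3. These folds leave out the counting error of BXPC3. The exact 95% interval of the ratio, which holds that error too, reached up to 0.0243 and 0.026. Within BXPC3 no treatment passed the test: the changes were 0.15 ± 0.21, -0.17 ± 0.22 and -0.25 ± 0.23 log2 (adjusted p = 0.526, 0.501 and 0.316), and at this depth their 95% intervals ran from -0.77 to 0.63. The second combination library, with 19 counts, stood below the rest, and without it the change with the combination was 0.06 log2.

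NCOA4, the receptor that takes ferritin to lysosomes, lies on chromosome 10 from 46005088 to 46030714 and fell in all 6 comparisons with vehicle. BXPC3 libraries stood at 306, 323 and 330 CPM with vehicle and between 250 and 268 CPM in all 9 treated libraries. PANC1 libraries stood at 310, 304 and 304 CPM with vehicle and between 223 and 236 CPM in all 9 treated libraries. No treated library reached a vehicle library of its line. The changes were -0.31 ± 0.038, -0.31 ± 0.038 and -0.32 ± 0.038 log2 in BXPC3 and -0.40 ± 0.035, -0.45 ± 0.035 and -0.35 ± 0.035 log2 in PANC1, with adjusted p between 4.32e-12 and 5.47e-08. In PANC1 it was higher with the combination than with lonidamine, by 0.10 ± 0.035 log2 (adjusted p = 0.0117). Its departure from the sum was positive in both lines, at 0.31 ± 0.054 and 0.50 ± 0.050 log2.

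Both genes of the iron regulatory proteins fell with all 3 treatments in PANC1, and with SR4 in BXPC3. ACO1 encodes IRP1, which is a cytosolic aconitase while it holds an iron-sulfur cluster, and lies on chromosome 9 from 32384603 to 32454769. PANC1 libraries stood at 100.2, 97.95 and 105 CPM with vehicle, at 54.9, 58.6 and 52.1 CPM with SR4, at 93.7, 88.2 and 90.4 CPM with lonidamine and at 67.0, 67.5 and 71.2 CPM with the combination. No groups overlap. ACO1 fell with each, at -0.87 ± 0.053, -0.17 ± 0.049 and -0.51 ± 0.051 log2 (adjusted p = 2.47e-14, 0.00303 and 4.25e-10). In BXPC3 it stood at 94.7, 97.2 and 98.5 CPM with vehicle and at 88.5, 91.5 and 82.4 CPM with SR4, a fall by 0.15 ± 0.051 log2 (adjusted p = 0.011), which missed the threshold without the SR4 library that carries no matching number (adjusted p = 0.0957). The changes with lonidamine and the combination in BXPC3 were 0.06 ± 0.051 and -0.09 ± 0.052 log2 (adjusted p = 0.304 and 0.109).

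IREB2 encodes IRP2, which is degraded when iron is plentiful, and lies on chromosome 15 from 78437431 to 78501456. In PANC1 it stood at 106, 102 and 108 CPM with vehicle, at 66.0, 60.9 and 73.7 CPM with SR4, at 94.7, 94.3 and 96.0 CPM with lonidamine and at 85.6, 80.8 and 79.6 CPM with the combination. It fell with each, at -0.65 ± 0.056, -0.16 ± 0.053 and -0.31 ± 0.054 log2 (adjusted p = 3.80e-11, 0.00729 and 7.20e-06). In BXPC3 it fell with SR4, from 138, 130 and 131 to 105, 114 and 105 CPM, by 0.31 ± 0.047 log2 (adjusted p = 2.38e-06). Lonidamine and the combination gave -0.02 ± 0.047 and -0.08 ± 0.047 log2 there (adjusted p = 0.671 and 0.107). Without the third combination library the latter was -0.12 log2 and passed (adjusted p = 0.0473). For both genes in PANC1 the combination was thus above SR4 alone, by 0.36 ± 0.055 log2 for ACO1 and 0.34 ± 0.057 log2 for IREB2 (adjusted p = 1.51e-06 and 6.09e-06).

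Many genes changed in these lines, and the counts of members have to be read against that. In BXPC3 8 of 9 members passed with SR4 (4 higher, 4 lower), where 67.2% of 12920 genes did (33.4% higher, 33.9% lower). With lonidamine 6 passed (5 higher, 1 lower) beside 67.5% of genes (34.8% and 32.7%), and with the combination 6 (4 higher, 2 lower) beside 79.2% (39.7% and 39.5%). In PANC1, where SLC40A1 was too low to be tested, 8 of 8 passed with SR4 (3 higher, 5 lower) beside 71.7% of 12514 genes (35% and 36.7%). There 7 passed with lonidamine (4 higher, 3 lower) beside 69.2% (35% and 34.2%), and 8 with the combination (4 higher, 4 lower) beside 81.1% (40.1% and 40.9%). The single member that fell with lonidamine in BXPC3 was NCOA4, and the 2 that fell with the combination there were TFRC and NCOA4. Median changes over the members were 0.15, 0.23 and -0.08 log2 in BXPC3 and -0.33, 0.10 and 0.23 in PANC1, against all-gene medians between -0.02 and 0.03. The combination differed from SR4 in 5 members in BXPC3 (FTH1, FTL, HMOX1 and IREB2 higher, SLC11A2 lower), beside 60.8% of genes (30.3% and 30.5%), and in 5 in PANC1, all higher (FTL, TFRC, SLC11A2, IREB2 and ACO1), beside 66.5% (33.2% and 33.4%). It differed from lonidamine in 5 members in BXPC3 (FTH1, FTL and HMOX1 higher, TFRC and ACO1 lower), beside 60.8% (30.1% and 30.7%), and in 7 in PANC1 (5 higher, with IREB2 and ACO1 lower), beside 74.6% (37.1% and 37.5%). Comparisons with vehicle share the 3 vehicle libraries of their line.

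The single compounds were also set against each other. SR4 gave higher FTH1, FTL and HMOX1 than lonidamine in both lines, by 0.42 ± 0.029, 0.42 ± 0.030 and 1.37 ± 0.096 log2 in BXPC3 and by 0.26 ± 0.031, 0.42 ± 0.042 and 0.30 ± 0.038 log2 in PANC1, with the highest adjusted p at 8.91e-08. It gave lower TFRC, IREB2 and ACO1 in both, with differences of -0.41, -0.28 and -0.21 log2 in BXPC3 and -0.28, -0.49 and -0.70 log2 in PANC1. SLC11A2 was also lower with SR4 in PANC1, at -0.56 ± 0.061 log2. In all, 6 of 9 members differed between SR4 and lonidamine in BXPC3, beside 46.7% of genes (23% higher and 23.7% lower with SR4), and 7 of 8 in PANC1, beside 66.2% (33.4% and 32.9%). NCOA4 was at -0.0045 ± 0.038 and 0.05 ± 0.035 log2, with 95% intervals of -0.09 to 0.08 and -0.03 to 0.13, and did not pass in either line.

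Lines were compared in 1 model of all 24 libraries and 13930 genes. With vehicle, 7 of 9 members differed, beside 84.3% of genes (41.3% higher, 43% lower): HMOX1 and TFRC were higher in PANC1 and FTH1, FTL, SLC11A2, IREB2 and SLC40A1 were lower. PANC1 minus BXPC3 was -0.55 ± 0.033 log2 for FTH1 and -0.89 ± 0.043 for FTL, and TFRC was higher by 0.60 ± 0.042. For NCOA4 and ACO1 the differences were -0.06 ± 0.036 and 0.06 ± 0.050 log2 (adjusted p = 0.106 and 0.262). Line and table cannot be told apart in these vehicle levels.

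On the log2 scale the combination raised FTH1 and HMOX1 by more in BXPC3 than in PANC1. In CPM, HMOX1 rose by more in PANC1, from a mean of 80.5 to 528 CPM, against 3.16 to 55.0 CPM in BXPC3. For FTH1 the PANC1 response minus the BXPC3 response was -0.25 ± 0.047 log2 with SR4, -0.05 ± 0.047 with lonidamine and -1.33 ± 0.047 with the combination (adjusted p = 1.74e-05, 0.381 and 1.08e-24). Those of HMOX1 were -0.20 ± 0.14, 0.91 ± 0.16 and -1.40 ± 0.13 log2 (adjusted p = 0.26, 1.05e-05 and 1.78e-12). FTL differed by -0.10 ± 0.060, -0.06 ± 0.060 and -0.19 ± 0.060 log2 (adjusted p = 0.161, 0.454 and 0.00535). The last missed the threshold in 19 of 24 fits that left out 1 library, with values down to -0.07. Some of these libraries were in no group compared. Without the second BXPC3 SR4 library FTL was at -0.11 log2, while the all-gene median of this difference moved by 0.0779 log2. The part of that shift was not tested. For ACO1 the differences were -0.72 ± 0.074, -0.20 ± 0.071 and -0.46 ± 0.073 log2. Of 9 members, 5 differed in response with SR4, all lower in PANC1, beside 51.2% of genes (26.2% higher, 24.9% lower). With lonidamine 3 did (1 higher, 2 lower) beside 41.8% (23.5% and 18.2%), and with the combination 6 (1 higher, 5 lower) beside 61.9% (31.7% and 30.2%).

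Several genes known to control HMOX1 and ferritin transcription rose. Of 8 such genes, 6 rose and 2 fell with SR4 in BXPC3, 6 rose and 1 fell with lonidamine and 6 rose and 1 fell with the combination, with median changes of 0.74, 0.95 and 1.53 log2. Over all genes 33.4%, 34.8% and 39.7% rose in these comparisons. In PANC1 6 rose and 1 fell, 5 rose and 2 fell, and 6 rose and 2 fell, where 35%, 35% and 40.1% of all genes rose. BACH1, the repressor, rose from 84.9 to 334 CPM with the combination in BXPC3 (1.98 ± 0.043 log2) and from 21.7 to 36.6 CPM in PANC1 (0.81 ± 0.073). MAFG, a small MAF partner, rose by 1.90 ± 0.058 and 1.18 ± 0.043 log2 and MAFF by 1.81 ± 0.061 and 2.48 ± 0.12. ATF4, the stress response factor, rose by 1.59 ± 0.035 and 1.94 ± 0.038 log2. The genes that fell were KEAP1 and CUL3, which encode parts of the ligase that marks NRF2 for degradation, and they are named after their values were seen: CUL3 changed by -0.05 ± 0.042 log2 with the combination in BXPC3 (adjusted p = 0.281) and fell by 1.54 ± 0.046 in PANC1. NFE2L2, the NRF2 gene, likewise named afterwards, rose by 0.48 ± 0.040 and 0.78 ± 0.036 log2.

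With the combination, most tested genes of iron uptake and reduction outside the members fell in PANC1. In BXPC3 3 of 10 tested rose (SLC39A14, LCN2 and CD44) and 5 fell (HFE, SLC39A8, STEAP1, STEAP2 and STEAP4). In PANC1 2 of 11 rose (SLC39A14 and LCN2) and 8 fell, with a median of -1.27 log2. With SR4 alone 5 fell there, beside 36.7% of all genes, and with lonidamine alone 4 fell, beside 34.2%. The combination counts here and in the lists that follow stand beside 79.2% of all genes called with it in BXPC3 (39.7% higher, 39.5% lower). In PANC1 they stand beside 81.1% (40.1% higher, 40.9% lower). Names that complete a small count in this and the next paragraphs were added after their values were seen. SLC39A14, a transporter of iron that is not bound to transferrin, rose by 0.78 ± 0.042 log2 in BXPC3 and 0.25 ± 0.039 in PANC1. HFE, which binds the transferrin receptor, fell in both, at -2.42 ± 0.18 and -2.65 ± 0.17 log2. STEAP3, the reductase of transferrin endosomes, fell from 56.7 to 15.5 CPM in PANC1 (by 1.82 ± 0.075 log2) and changed by 0.04 ± 0.064 log2 in BXPC3 (adjusted p = 0.533).

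Among 5 tested genes of iron chaperones, export and the hepcidin axis, 2 rose and 2 fell with the combination in each line (PCBP2 and BMP6 against CP and PROM2 in BXPC3, PCBP1 and BMP6 against PCBP2 and CP in PANC1). PROM2, linked to ferritin release in vesicles, fell from 137 to 11.3 CPM in BXPC3, by 3.58 ± 0.068 log2, and stood at 0.886 CPM with vehicle in PANC1. BMP6, the signal that induces hepcidin in liver, rose by 1.45 ± 0.059 log2 in PANC1. PCBP1, a chaperone that loads iron into ferritin, rose by 0.33 ± 0.037 log2 in PANC1 and changed by 0.03 ± 0.043 in BXPC3 (adjusted p = 0.534).

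Of 7 tested genes that act on, or are controlled by, the iron regulatory proteins, 2 rose (HERC2 and EPAS1) and 3 fell (SKP1 and CUL1 among them) with the combination in BXPC3, and 3 rose (HERC2 and EPAS1 among them) and 3 fell (SKP1, CUL1 and CDC14A) in PANC1. EPAS1, the HIF-2 alpha gene whose transcript carries an iron-responsive element, rose by 0.82 ± 0.035 and 0.89 ± 0.040 log2. SKP1, a part of the ligase that degrades IRP2, fell, at -0.47 ± 0.047 and -0.55 ± 0.044 log2.

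Heme genes did not move as a block. Of 13 heme synthesis genes, 3 rose (PPOX, SLC25A38 and ABCB6) and 7 fell with the combination in BXPC3, and 5 rose (ALAS1, PPOX, SLC25A38, ABCB6 and CLPX) and 4 fell (UROS, CPOX, FECH and ABCB10) in PANC1. PPOX, which makes the last porphyrin before iron is inserted, rose by 1.37 ± 0.18 and 1.55 ± 0.15 log2, and CPOX, the enzyme before it, fell, at -0.93 ± 0.086 and -1.21 ± 0.11 log2. SLC25A38, the mitochondrial glycine carrier, rose by 0.87 ± 0.068 and 1.75 ± 0.072 log2. Of 11 tested genes of heme breakdown and transport, 4 rose (BLVRA, BLVRB, POR and PGRMC2) and 5 fell (HMOX2, SLC46A1, SLC48A1, PGRMC1 and ABCG2) in BXPC3, and 4 rose (BLVRB, POR, SLC48A1 and PGRMC2) and 7 fell in PANC1. BLVRB, a biliverdin reductase gene, rose by 1.25 ± 0.090 and 1.30 ± 0.11 log2. The other biliverdin reductase gene, BLVRA, rose in BXPC3 only. HMOX2, the constitutive heme oxygenase gene, fell, at -0.75 ± 0.064 and -0.17 ± 0.070 log2, opposite to HMOX1. FLVCR2, a heme transporter gene, fell in PANC1, at -2.34 ± 0.16 log2, and so did ABCG2, a heme and drug exporter gene, at -1.61 ± 0.076.

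Genes of iron-sulfur cluster assembly moved both ways. With the combination 4 of 28 rose (HSPA9, IBA57, SLC25A37 and FAM96B) and 13 fell in BXPC3, and 12 rose and 10 fell in PANC1. BOLA3, a late assembly factor, fell, at -1.96 ± 0.19 and -0.76 ± 0.099 log2. HSPA9, the mitochondrial chaperone, rose by 0.52 ± 0.032 and 1.27 ± 0.031 log2. Of ferroptosis genes, 11 of 22 rose and 8 fell in BXPC3, and 13 of 20 rose and 7 fell in PANC1. SLC7A11, the cystine carrier, rose by 3.05 ± 0.048 and 4.44 ± 0.091 log2, GCLC, which starts glutathione synthesis, by 3.08 ± 0.050 and 1.67 ± 0.064, and CHAC1, which degrades glutathione, by 3.19 ± 0.11 and 4.36 ± 0.091. The medians of this list were 0.13 and 0.32 log2. All 8 lists were chosen with earlier results of these libraries known.

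**Figure D4:**
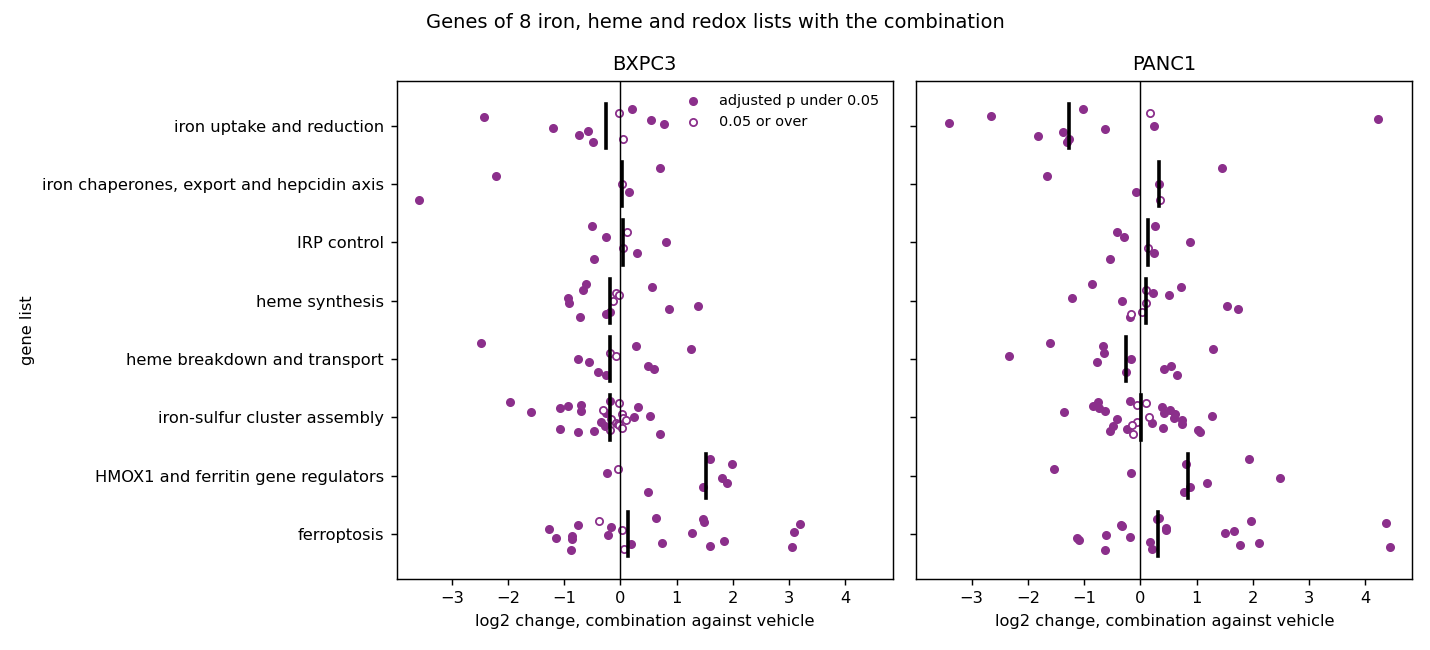
Log2 change with the combination against vehicle for the tested genes of 8 lists in each line. Points are genes, filled where the adjusted p was under 0.05, and black bars are list medians. The median of the HMOX1 and ferritin gene regulators lies at 1.53 in BXPC3, and that of iron uptake and reduction at -1.27 in PANC1.

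The genes whose levels ran most like the members over the 24 libraries, after each line was centred on its own mean, are given as a description among 9708 genes. For FTH1 they were CCSER2, RBCK1 and BACH1 (Pearson's r = 0.989, 0.989 and 0.986). For FTL they were DDIT3, MIA2 and TRIB3 (0.991, 0.989 and 0.984), of which DDIT3 and TRIB3 are stress response genes. For HMOX1 they were SPIRE1, SQSTM1 and SMOX (0.984, 0.982 and 0.9751), of which SQSTM1 encodes the autophagy receptor p62. TFRC had less close matches, among them UBE3C and HADHB (0.867 and 0.861). Among members, r was 0.982 for FTH1 and HMOX1, 0.954 for FTH1 and FTL and 0.877 for ACO1 and IREB2, and it was -0.911 for FTL and NCOA4. These libraries share 8 groups and their treatments, so the values describe likeness of pattern over few conditions.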

How the data were processed

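RNA was measured in 24 libraries of BXPC3 and PANC1. The authors deposited 1 table of gene counts per line (25168 genes, 12 libraries each), with gene positions and lengths. The submitters' processing notes name Partek, the aligner STAR 2.7.8a, DESeq2 and the builds hg38 and GRCh38, without roles. Per the labels' protocols, mRNA libraries were made with a KAPA kit. No source used here gives the counting tool, the annotation release, the strand setting or the handling of reads that fit several places, so reads of ferritin gene copies or of antisense genes may be included. The third BXPC3 SR4 column carries a number that matches no sample title and was used as an unnumbered replicate.

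Counts were scaled by TMM (factors 0.964 to 1.04 within lines and 0.936 to 1.07 over both) and tested in edgeR 4.0.16 by the quasi-likelihood test, with a minimum count of 10 in filterByExpr, 4 groups per line (8 residual degrees of freedom) or 8 groups over both lines (16), and Benjamini-Hochberg adjustment over all genes tested at 0.05. Changes against vehicle come from the fit of each line. Levels and differences between lines come from the scaling or fit of all 24 libraries. The SE is the log2 change over the square root of F. Replicates differed by more than counting error (chi-square per degree of freedom 1.31 to 3.77). The members, the lists and the rule for named genes (2 genes per list and line with the largest combination change and a mean log2 CPM of at least 2, and 3 genes most like each of FTH1, FTL, HMOX1 and TFRC) were chosen with earlier results of these data known. A few genes that this rule names are not reported here. Simulated SR4 comparisons changed few genes: 98 by 0.5 log2 and 99 by 1 log2 in BXPC3 (12573 genes), and 99 by each in PANC1 (12221 genes). The test recovered 71.4% and 97% of them in BXPC3 and 74.7% and 97% in PANC1, with 2 of 168 and 14 of 184 calls false. In the data 67.2% and 71.7% of genes were called with SR4, so these rates may not carry over. Alternatives were DESeq2 1.42.0, its size factors, no low-count filter, the replicate block, only the groups compared and fits without 1 library at a time. R 4.3.3 and Python 3.11.15 were used.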

Additional observations from a re-analysis of the deposited data

Results flagged for a closer look

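The responses of 7 members differed between lines by the test of the difference itself (PANC1 response minus BXPC3 response, edgeR's quasi-likelihood test, adjusted over 13930 genes). With SR4 these were FTH1 (-0.25 log2), SLC11A2 (-0.73), ACO1 (-0.72), IREB2 (-0.35, adjusted p = 0.000115) and TFRC (-0.14, adjusted p = 0.0417). That of TFRC missed the threshold in 17 of 24 fits that left out 1 library and lay between -0.21 and -0.09 over all alternatives. With lonidamine they were HMOX1 (0.91), TFRC (-0.24, adjusted p = 0.00117) and ACO1 (-0.20, adjusted p = 0.0208). With the combination they were FTH1 (-1.33), HMOX1 (-1.40), ACO1 (-0.46), SLC11A2 (0.30, adjusted p = 0.00132), IREB2 (-0.27, adjusted p = 0.00141) and FTL (-0.19, adjusted p = 0.00535). IREB2 with the combination missed the threshold in 4 of 24 fits that left out 1 library: the second BXPC3 vehicle, the third BXPC3 combination, the third PANC1 vehicle or the third PANC1 combination library, with adjusted p from 0.051 to 0.0791. In those fits the all-gene median of the difference also moved, by 0.0706 to 0.0872 log2. No cause was tested for any of these.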

How the results depend on the processing

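The 130 member results compared were those against vehicle, those that passed elsewhere and a few chosen ones that did not pass. Other results that did not pass were left out, so the counts do not cover all member results. Of the 130, 113 kept their call and direction in all alternatives run, and 2398 of 2481 single comparisons did. Of 114 results that passed, 8 missed the threshold in at least 1 alternative. Besides those given above, ACO1 between the combination and lonidamine in BXPC3 (-0.15 log2) had an adjusted p of 0.0652 without the first lonidamine library and 0.12 without the third combination library. IREB2 between the combination and lonidamine in PANC1 (-0.15 log2) had 0.0529 and 0.0703 without the second and the third combination library. A change of sign was seen 2 times, both in results that did not pass: IREB2 with lonidamine in BXPC3 went from -0.02 to 0.0079 log2 without the first vehicle library (range over left-out libraries -0.044 to 0.0079), and SLC40A1 with the combination in BXPC3 went to 0.057 log2 without the second combination library (range -0.484 to 0.057). The lonidamine response of NCOA4 (-0.11 log2, adjusted p = 0.0806) differed between lines by the test in 18 of 28 alternatives (-0.16 to -0.10 log2, adjusted p from 0.00711 to 0.146 over all 28), and the SR4 response of FTL in 3 of 28 (-0.15 log2 and adjusted p = 0.0298 with DESeq2's size factors). The cause was not tested.

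Leaving out 1 library, members called against vehicle numbered 7 to 8 with SR4, 6 to 6 with lonidamine and 6 to 7 with the combination in BXPC3, and 8 to 8, 7 to 7 and 7 to 8 in PANC1. Between lines they numbered 4 to 6, 3 to 4 and 4 to 6. Leaving out 1 library moved the all-gene median of the difference in combination response by up to 0.0888 log2.

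No clear pairing by replicate number was seen. After each group was centred on its mean, same-numbered libraries correlated between -0.158 and 0.123 in BXPC3 (15 pairs, 1 over 0.1). In PANC1 they correlated between -0.219 and 0.118 (18 pairs, 3 over 0.1). With 3 libraries per group such correlations cannot show that the libraries were unpaired. With the replicate block, members called with SR4 in BXPC3 numbered 7 in place of 8 (ACO1, adjusted p = 0.071), combination against SR4 in BXPC3 4 in place of 5 (SLC11A2, adjusted p = 0.105) and the SR4 response between lines 4 in place of 5 (TFRC, adjusted p = 0.0764). Adding the counts of ferritin gene copies was not run, as the tables hold 0 such rows. Depth limits SLC40A1 most, at 19 to 66 counts per BXPC3 library.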
